A study of Mus musculus with 2 samples.

Results

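Fibroblasts of the early postnatal mouse dentate gyrus were taken from 2 droplet single-cell RNA libraries, 227 cells from the Setdb1_cKO library and 218 cells from the control library, 445 of 21370 cells that passed the filters. A cell was a member when its unique molecular identifiers (UMIs, each 1 captured RNA molecule) for Col1a1, Col1a2, Dcn and Lum summed to at least 10, with at most 1 UMI of the endothelial gene Cldn5, at most 2 of the pericyte gene Rgs5 and 0 of the macrophage gene C1qa. The gate therefore used the levels of these genes, and their values describe the members and test nothing. The Setdb1_cKO sample is labelled as a conditional knockout of Setdb1, the gene of a methyltransferase that places the repressive histone mark H3K9 trimethylation, and the control sample is labelled wild type. Both were dissected at postnatal day 5 and dissociated with enzymes, and each genotype has 1 library. The sources used here do not give the Cre driver, the deleted exons, the strain or how many animals went into a library. With 1 library per genotype there is no replicate error, so no p-value is given, every difference is one between these libraries, and every interval covers counting error only.

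Fibroblasts at the surface of the brain make up most of the meninges. The pia, its innermost layer, lies on the basement membrane over the brain surface, and related perivascular fibroblasts follow the larger vessels inwards. The arachnoid lies outside the pia, with inner cells that hold retinoic acid enzymes and prostaglandin D synthase and an outer barrier layer joined by tight junctions, and the dura lies outermost. During development these cells lay down collagens and laminins and release retinoic acid, the chemokine Cxcl12, Wnt ligands and insulin-like growth factors. The dentate gyrus forms close to the meninges of the hippocampal fissure.

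The fibroblasts held 2086750 UMIs in Setdb1_cKO and 1766015 UMIs in control. A fibroblast had a median of 7775 UMIs and 2844 genes in Setdb1_cKO and of 7236 UMIs and 2652 genes in control, and the median mitochondrial share was 5.09% in Setdb1_cKO and 5.23% in control. The libraries shared 68 cell barcodes, 0 of them among the fibroblasts. Xist, the RNA that silences an X chromosome in female cells, had 2820 UMIs in Setdb1_cKO fibroblasts and 0 in control fibroblasts, at least 795.5-fold more against a floor of 3 counts. The Y-linked genes Ddx3y and Eif2s3y had 0 UMIs each in Setdb1_cKO, against 130 and 74 UMIs in control. Genotype and sex thus changed together between the libraries and cannot be told apart in any difference below. Setdb1 itself (chr3:95323525-95357202, mm10) had 54 UMIs or 25.9 CPM (UMIs per 1000000 UMIs of the fibroblasts) in Setdb1_cKO and 52 UMIs or 29.4 CPM in control, a Setdb1_cKO over control ratio of 0.879 (95% interval 0.589 to 1.31). It was 1.03 without 2 clusters led by neuronal and glial genes, described below, and 1.37 without cells that held 3 or more UMIs of a neuron gene list. In all other cells the ratio was 0.474. A 3' tag counts the end of a transcript, which can remain when exons elsewhere are deleted. Setdb1 transcript in fibroblasts therefore checks neither the presence nor the absence of the deletion there.

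Fibroblasts made up 2.28% of kept cells in Setdb1_cKO (exact Clopper-Pearson interval 1.996% to 2.59%) and 1.91% in control (1.67% to 2.18%). The ratio of shares was 1.19, and its interval of 0.987 to 1.44 included 1. The gate sum had a median of 51 UMIs per fibroblast in Setdb1_cKO and 50 in control. At the edge of the gate, the 8 cells with 10 to 12 gate UMIs held 10 to 38 UMIs of 20 other fibroblast genes (median 17), and the 7 otherwise eligible cells with 7 to 9 gate UMIs held 5 to 25 (median 16).

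The gated cells matched their label. All 20 fibroblast genes set outside the gate were measured, that is, had at least 50 UMIs over both libraries. Their summed level was 8867 CPM in Setdb1_cKO and 9667 CPM in control, while all other cells had 444.4 CPM in Setdb1_cKO and 738.9 CPM in control. They include Pdgfra, the platelet-derived growth factor receptor of mesenchymal cells, at 231.9 CPM in Setdb1_cKO and 223.7 CPM in control. Tbx18, a mesenchymal transcription factor, had 360.4 CPM in Setdb1_cKO and 416.2 CPM in control. Foxc1, a transcription factor needed for meninges to form, had 263.1 CPM in Setdb1_cKO and 306.9 CPM in control. None of the 20 differed by 2-fold between the libraries.

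Of 1446 genes with at least 100 CPM in the fibroblasts of both libraries, 133 lay at least 10-fold above all other cells and 317 at least 2-fold. Besides the gate genes, the genes furthest above other cells were largely transporters, enzymes and matrix genes of the meninges. Slc22a6, an organic anion transporter, had 265.5 CPM in Setdb1_cKO and 327.9 CPM in control. Slc6a13, a GABA and taurine transporter, had 973.8 CPM in Setdb1_cKO and 1074 CPM in control. Aldh1a2, which makes retinoic acid, had 355.1 CPM in Setdb1_cKO and 373.7 CPM in control. Ptgds, prostaglandin D synthase, had 6911 CPM in Setdb1_cKO and 8074 CPM in control, but only 53.7% of fibroblasts held a UMI of it, so its level sat in part of the cells. The gap-junction genes Gjb2 and Gjb6 were in the same leading 20, together with the tight-junction gene Cldn11, the ligands Edn3 and Bmp6, the agouti gene (a), Col13a1, Col3a1, Col6a1, Col6a3, Ogn and Igfbp6. Igfbp6, which binds insulin-like growth factor 2, was the most restricted of them, with a UMI in 14.4% of the cells.

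Markers of neighbouring cell types were low with a few exceptions. The 9 macrophage genes summed to 9.58 CPM in Setdb1_cKO and 5.66 CPM in control. Of 8 endothelial genes only Cdh5, an adhesion gene, was measured, at 101.1 CPM in Setdb1_cKO and 77.6 CPM in control. The pericyte and muscle genes Kcnj8, Abcc9 and Myh11 had 6, 9 and 3 UMIs over both libraries. Of the same 9-gene mural list, Tagln had 96.8 CPM in Setdb1_cKO and 72.5 CPM in control, against 3.55 CPM and 3.82 CPM in all other cells of Setdb1_cKO and control, and Anpep had 48 UMIs in Setdb1_cKO and 38 in control. Vtn, which was on that list too and encodes the adhesive protein vitronectin, was nevertheless abundant in the fibroblasts, at 3233 CPM in Setdb1_cKO and 3759 CPM in control, and it was found in 226 of 227 Setdb1_cKO and 217 of 218 control fibroblasts. Slc1a3, set as a glial gene, had 920.1 CPM in Setdb1_cKO and 896.9 CPM in control, with a UMI in 96.9% of fibroblasts. In all other cells it had 626.2 CPM in Setdb1_cKO and 966.7 CPM in control. Clusters led by other glial and by neuronal genes are described below.

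Clustering the fibroblasts by 2000 variable genes, with the gate genes left out, gave 9 groups. Their leading genes were used to form them and are given here only to say what the groups are.

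**Figure D1:**
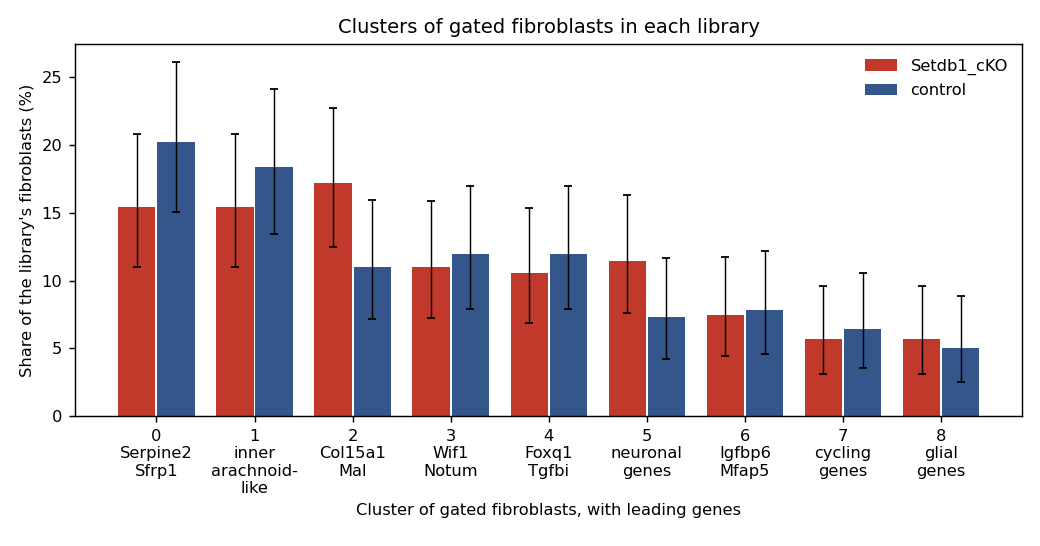
Share of each library's gated fibroblasts (%) in the 9 clusters, Setdb1_cKO in red and control in blue, with exact 95% binomial intervals as bars. Cluster 2 held 17.2% of Setdb1_cKO and 11.0% of control fibroblasts, and the intervals of the libraries overlap in every cluster.

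Cluster 1 (35 Setdb1_cKO and 40 control cells) was inner arachnoid-like: it held Crabp2, which carries retinoic acid, at 318 CPM, Aldh1a2 at 600.2 CPM, Angptl2 at 154.1 CPM and Ptgds at 15507.3 CPM, all values over both libraries. The other members of that list did not single it out: Slc6a13 had 1241 CPM there and 1374 CPM in cluster 2, Slc22a6 had 261.2 CPM there and 280.4 to 534.7 CPM in clusters 0, 2, 3 and 4, and Slc47a1 had 0 UMIs. H19, Fmod, Alcam and Cyp26b1, which breaks down retinoic acid, led it too. Cluster 6 (17 and 17 cells, Setdb1_cKO and control) had still more Ptgds, 30570.6 CPM, and the highest Cldn11, 486.5 CPM, and Aldh1a2, 681.1 CPM, with Igfbp6, Mfap5, Cd34 and Tnxb leading. It also held most of the few Dpp4 and Dpt UMIs, markers set for the arachnoid barrier and the dura, so it was given no layer name. Ptgds divided the other clusters sharply: it stood at 7180 CPM in cluster 2 but at 144 to 712.4 CPM in clusters 0, 3 and 4.

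The pial markers did not share 1 pattern over the clusters. Lama1, a laminin chain of the pial basement membrane, had 183.8 to 243.9 CPM in clusters 0, 3 and 4 and 166.5 CPM in cluster 2, with 79.5 CPM in cluster 1 and 43.5 CPM in cluster 6. Lama2, another laminin chain, had 172.6, 89.1 and 76.4 CPM in clusters 0, 3 and 4, with 184.9 CPM in cluster 1 and 253.5 CPM in cluster 6. S100a6 had 3556 CPM in cluster 4, 3155 CPM in cluster 6 and 454.2 CPM in cluster 1. Fn1, the gene of fibronectin, was at 0 UMIs in clusters 0, 3 and 4, and at 116.8 CPM in cluster 1 and 169 CPM in cluster 6. Cluster 4 (24 Setdb1_cKO and 26 control cells) was led by the transcription factor genes Foxq1 and Foxf2 and by Tgfbi. Cluster 3 (25 and 26 cells) was led by Fam180a and the Wnt inhibitors Wif1, Nkd2 and Notum. Cluster 0 (35 and 44 cells) was led by Serpine2, Fabp5 and the Wnt inhibitor Sfrp1. Cluster 2 (39 and 24 cells) was led by Col15a1, a collagen of vessel basement membranes, which had 352 CPM there, and it held the most Ngfr, 42.2 CPM. These 4 clusters stay without a layer name, since the pial markers were spread over all of them.

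Markers of the outer layers were uneven. Of the 5 arachnoid barrier markers Cldn11 had 757 UMIs over both libraries, with a UMI in 55.5% of cells, while Dpp4 had 34, Klf5 33, Krt18 2 and Cdh1 0. Of the 5 dura markers Fxyd5 had 136 UMIs, Mgp 35, Dpt 23, Matn4 13 and Dkk2 2. The 0 UMIs of Cdh1, and of Slc47a1 of the inner arachnoid, allow a level of up to 0.779 CPM.

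**Figure D2:**
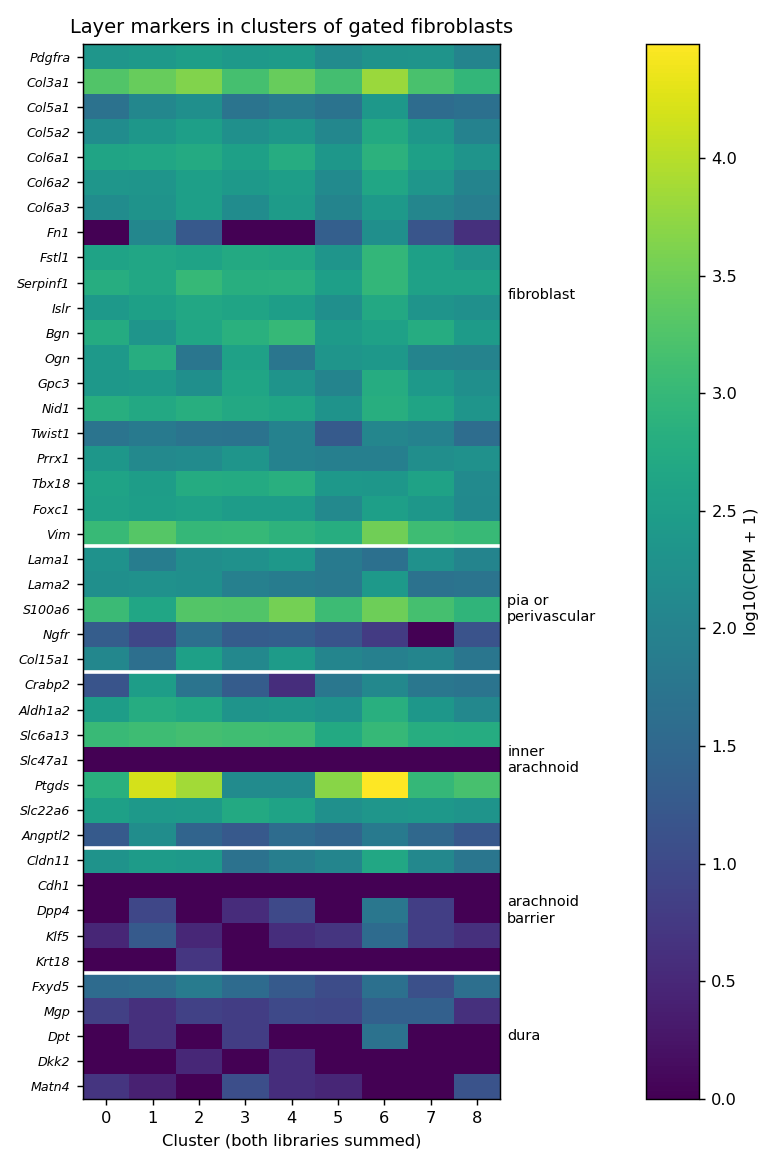
Level of the fibroblast and layer markers in the 9 clusters as log10(CPM + 1), both libraries summed; rows are genes by list and columns are clusters. Ptgds and Crabp2 are brightest in clusters 1 and 6, S100a6 is bright in clusters 4 and 6, and Slc47a1 and Cdh1 are at 0 throughout.

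The last 3 clusters differ from the rest by genes that are not fibroblast genes. Cluster 7 (13 Setdb1_cKO and 14 control cells) was led by histone and mitotic genes and is called cycling here. Cluster 5 (26 and 16 cells) was led by the neuronal genes Calb2, Neurod1, Nrgn, Rtn1 and Tubb3. Cluster 8 (13 and 11 cells) was led by the glial genes Fabp7, Ptprz1, Aqp4 and Gfap. Their fibroblast genes were lower, with sums over the 20 genes of 4843 CPM in cluster 5 and 4640 CPM in cluster 8, against 7197 to 17419.6 CPM in the others. Scrublet, which scores cells by their likeness to simulated cell pairs, marked 78.6% of cluster 5 and 83.3% of cluster 8 as doublets. Over all gated cells it marked 38 of 227 (16.7%) in Setdb1_cKO and 24 of 218 (11.0%) in control. Both clusters held more Setdb1_cKO cells, and many values below are also given without these 2 mixed clusters, on 188 Setdb1_cKO cells with 1590635 UMIs and 191 control cells with 1444985 UMIs.

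For the comparison of genotypes, UMIs were summed over the fibroblasts of each library and scaled to CPM. A gene was called when its ratio, Setdb1_cKO over control, was at least 2 or at most 0.5. Of 7930 measured genes outside the gate, 124 (1.56%) were at least 2-fold higher and 33 (0.416%) at least 2-fold lower in Setdb1_cKO. Sex-linked genes stayed in these counts, and a list of them gave 2 of the higher and 2 of the lower calls. The median log2 ratio over the measured genes was -0.006. Without the neuronal and glial clusters, 79 of 6762 genes (1.17%) were higher and 26 (0.385%) lower. Of the 124 higher genes, 61 still had 50 UMIs in that smaller set, and 46 of those 61 were still at least 2-fold higher. Of all other cells' 16587 measured genes, 868 (5.23%) were higher and 462 (2.79%) lower. Of the 124, 18 had a ratio of at least 2 in all other cells too, counted without a minimum of UMIs there. The sets differ in depth and in cell types, so these shares are not compared with each other.

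**Figure D3:**
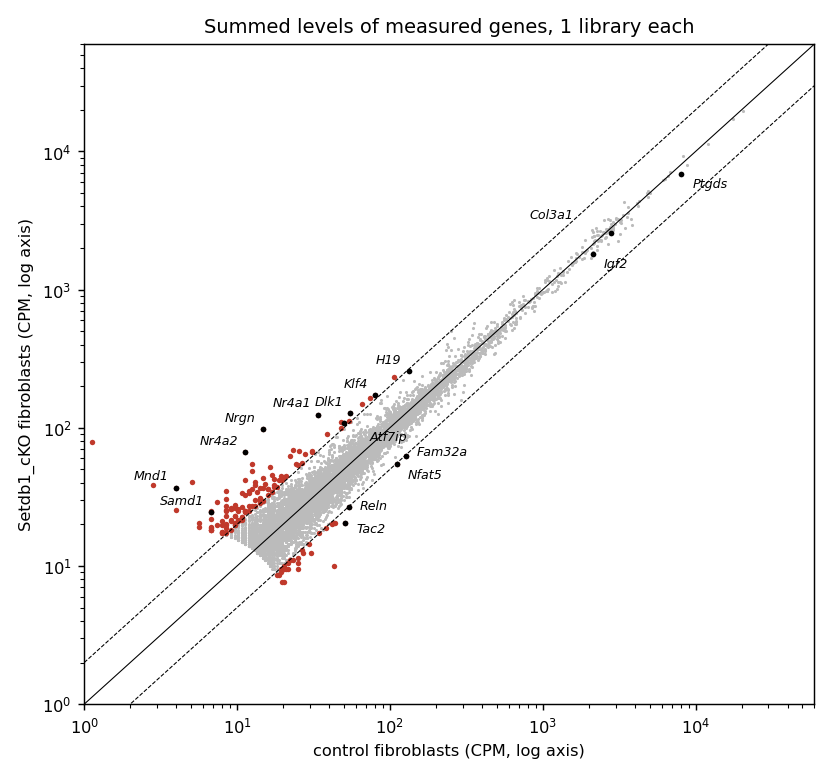
Level in Setdb1_cKO fibroblasts (CPM, vertical log axis) against control fibroblasts (CPM, horizontal log axis) for measured genes outside the gate with UMIs in both libraries; red points are at least 2-fold apart, black points are genes named in the text, and dashed lines mark 2-fold. Most genes lie on the diagonal, and Nr4a1, Nr4a2 and Mnd1 lie above the upper dashed line.

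Matrix genes outside the gate had few calls. Fibrillar collagens form the cable-like fibres of connective tissue: 5 were measured outside the gate and 0 were called, with a median log2 ratio of -0.15 and 5 of 5 lower; over all measured genes 1.56% were called higher and 0.416% lower, so 0 calls in a list of this size is what the background gives. Col3a1 had 2570 CPM in Setdb1_cKO and 2798 CPM in control, a ratio of 0.919 (0.884 to 0.955). Among the 9 measured collagens of networks and microfibrils 0 were called, and 8 lay below 1. Col4a1 of basement membranes had 1926 CPM in Setdb1_cKO and 2256 CPM in control (0.854, interval 0.817 to 0.892). Collagen synthesis enzymes, 18 measured, had a median of -0.10 and 0 calls, with Serpinh1, the collagen chaperone, at 745.2 CPM in Setdb1_cKO and 795.6 CPM in control.

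The slight deficit shrank when the mixed clusters were left out. The 20 fibroblast genes outside the gate had a median log2 ratio of -0.14 over all gated cells and of -0.05 without the neuronal and glial clusters. For the fibrillar collagens these medians were -0.15 and -0.06, and for the 9 network collagens -0.21 and -0.14.

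A few matrix genes stood further from 1 in both sets of cells. Mfap4, a microfibril-associated glycoprotein, had 205.6 CPM in Setdb1_cKO and 307.5 CPM in control, a ratio of 0.669 (0.588 to 0.760) and of 0.660 without the mixed clusters. Fbln1, fibulin 1 of elastic fibres, had 86.3 CPM in Setdb1_cKO and 130.2 CPM in control (0.662, interval 0.542 to 0.809; 0.645 without the mixed clusters). Lamc3, a laminin chain, had 143.8 CPM in Setdb1_cKO and 217.4 CPM in control (0.661, interval 0.567 to 0.771; 0.676 without them). Sparc, a collagen-binding matricellular protein, had 2944 CPM in Setdb1_cKO and 3860 CPM in control (0.763, interval 0.737 to 0.790; 0.801 without them). None of these reached 2-fold. Going the other way, Col9a2, a collagen that sits on other fibrils, had 106.4 CPM in Setdb1_cKO and 61.2 CPM in control (1.74, interval 1.38 to 2.21; 1.85 without them).

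Thbs1, thrombospondin 1, was the only one of 16 measured matricellular genes to be called, against 1.56% of all measured genes called higher. It had 90 UMIs or 43.1 CPM in Setdb1_cKO and 26 UMIs or 14.7 CPM in control, a ratio of 2.93 (1.88 to 4.72) and of 3.12 without the mixed clusters. The ratio lay above 1 in 4 of the 7 other clusters and below 1 in 3. The inner arachnoid-like cluster held 37 of the UMIs in Setdb1_cKO and 3 in control. Col22a1 was the only called gene among 4 measured fibril-associated collagens, against 0.416% of all measured genes called lower. It had 21 UMIs in Setdb1_cKO and 36 in control, a ratio of 0.494, but 0.707 without the mixed clusters. A single call says little about either list.

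**Figure D4:**
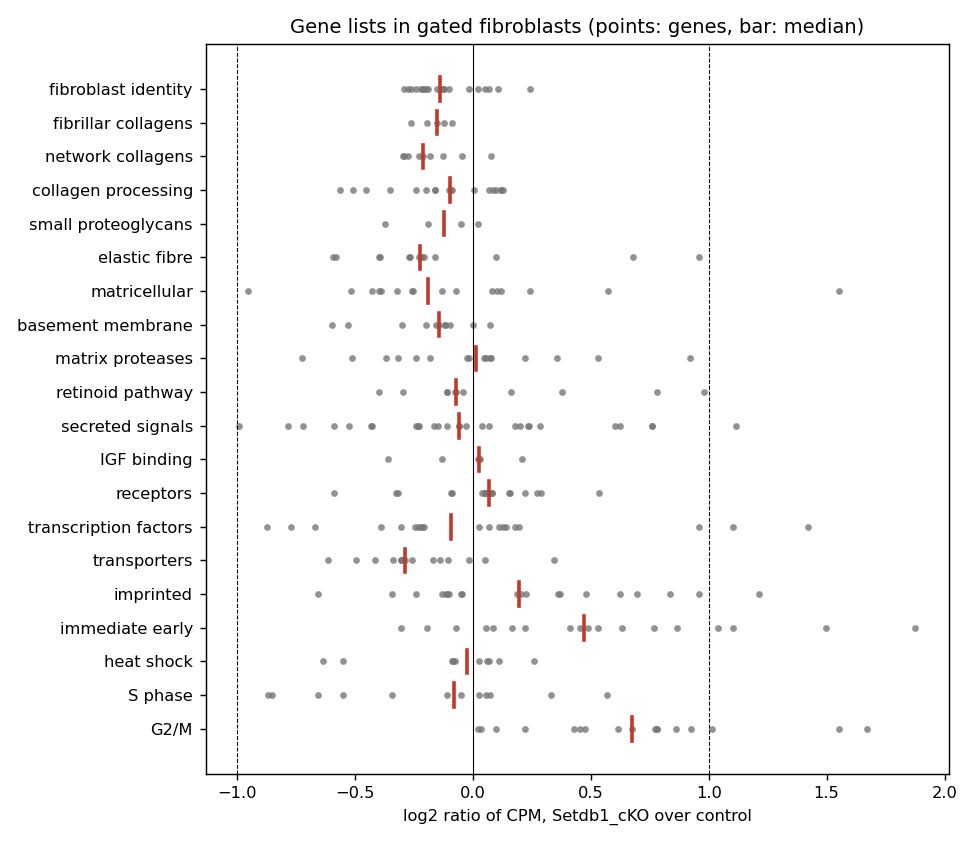
Log2 ratio of CPM, Setdb1_cKO over control, of each measured gene (grey points) in 20 gene lists over all gated fibroblasts; the red bar is the median of the list and dashed lines mark 2-fold. Matrix lists lie slightly below 0, while the medians of the immediate early list, 0.47, and of the G2/M list, 0.67, lie above it.

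Of 28 measured ligands and secreted inhibitors 1 was called, higher in Setdb1_cKO, against 1.56% of all measured genes. A single call is near what a list of this size gives at that share. The median log2 ratio of the list was -0.06. Ptn, a heparin-binding growth factor, had 19561.5 CPM in Setdb1_cKO and 20358.8 CPM in control. Cxcl12, the chemokine that guides Cajal-Retzius cells and dentate progenitors, had 1620 CPM in Setdb1_cKO and 1653 CPM in control, a ratio of 0.980 (0.932 to 1.03). Wnt4 had 501.7 CPM in Setdb1_cKO and 562.8 CPM in control. Igf1, insulin-like growth factor 1, was called: it had 141 UMIs or 67.6 CPM in Setdb1_cKO and 55 UMIs or 31.1 CPM in control. Its ratio was 2.17 (1.58 to 3.02), and 2.07 without the mixed clusters; it lay above 1 in 7 of the 7 clusters other than the neuronal and glial ones, and it was 2.21 in all other cells.

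Igfbp2, which binds insulin-like growth factors, had 2509 CPM in Setdb1_cKO and 3225 CPM in control (0.778, interval 0.749 to 0.808). The 6 measured genes of that family and its receptors had 0 calls. In the retinoic acid pathway 11 genes were measured and 0 called. Aldh1a1, an enzyme that makes retinoic acid, had 130.3 CPM in Setdb1_cKO and 100.2 CPM in control. Of 19 measured growth factor receptors 0 were called, with a median of 0.07. The 15 measured transporter and junction genes also had 0 calls, 13 of them below 1, with a median of -0.29. Over all measured genes 1.56% were called higher and 0.416% lower. At these shares, 0 calls in lists of these sizes is what the background gives.

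Among 20 measured mesenchymal transcription factors 2 were called, both higher, against 1.56% of all measured genes. Osr2 had 38 UMIs in Setdb1_cKO and 12 in control, a ratio of 2.68 (1.37 to 5.63), and 2.73 without the mixed clusters. Its paralogue Osr1 went the other way, with 182 UMIs or 87.2 CPM in Setdb1_cKO and 263 UMIs or 148.9 CPM in control (0.586, interval 0.482 to 0.710; 0.673 without them). Foxd1, a forkhead factor of mesenchyme, had 150 CPM in Setdb1_cKO and 238.4 CPM in control (0.629, interval 0.542 to 0.730; 0.687 without them). The other called factor was Klf4, described next.

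Immediate early genes, whose transcription switches on within minutes of a stimulus or of tissue dissociation, were higher on balance in Setdb1_cKO fibroblasts. Of 20 genes listed 18 were measured, 15 of them lay above 1, and 4 (Nr4a1, Fosl2, Klf4 and Atf3) were at least 2-fold higher in Setdb1_cKO, against a background of 1.56% of all measured genes. The median log2 ratio was 0.47, and 0.56 without the mixed clusters. In all other cells the same list had a median of -0.29 with 0 genes higher by 2-fold and 1 lower, and the difference between fibroblasts and other cells was not tested.

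Nr4a1, an orphan nuclear receptor, had 260 UMIs or 124.6 CPM in Setdb1_cKO and 60 UMIs or 34.0 CPM in control. A UMI of it was found in 118 of 227 Setdb1_cKO fibroblasts and in 41 of 218 control fibroblasts. The ratio was 3.67 (2.76 to 4.94), and 3.75 without the mixed clusters. It lay above 1 in 6 of 7 clusters and below it in cluster 4, where it rested on 3 UMIs in Setdb1_cKO and 4 in control. After each cell was thinned to 2000 UMIs, 48 of 225 Setdb1_cKO fibroblasts (21.3%) and 10 of 216 control fibroblasts (4.63%) kept a UMI. In neurons, which served as a measure of free RNA, these thinned shares were 0.425% in Setdb1_cKO and 0.573% in control, at median depths of 14359 and 10560 UMIs. The thinned shares lay in the same order as the levels.

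Nr4a2, its close relative and not a member of the list, was among the genes named by rank. It had 139 UMIs or 66.6 CPM in Setdb1_cKO and 20 UMIs or 11.3 CPM in control, a ratio of 5.88 (3.67 to 9.93) and of 8.18 without the mixed clusters. All 7 clusters had a higher level in Setdb1_cKO. Gem, a small GTPase, had 142 UMIs or 68.1 CPM in Setdb1_cKO and 45 UMIs or 25.5 CPM in control, a ratio of 2.67 (1.90 to 3.82).

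The remaining called members are transcription factors too. Klf4 had 358 UMIs or 171.6 CPM in Setdb1_cKO and 141 UMIs or 79.8 CPM in control (2.15, interval 1.76 to 2.63). It was 5.05 in the inner arachnoid-like cluster and 1.09 to 3.78 in the other 6. Fosl2, an AP-1 subunit, had 70 UMIs in Setdb1_cKO and 21 in control (2.82, interval 1.71 to 4.84). Atf3, a stress-induced factor, had 233 UMIs in Setdb1_cKO and 96 in control (2.05, interval 1.61 to 2.63), but 17 in Setdb1_cKO and 22 in control within cluster 2, a ratio of 0.521.

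The more abundant genes of the list were not called. Jund had 1166 CPM in Setdb1_cKO and 1038 CPM in control (1.12, interval 1.06 to 1.19). Fos had 953.6 CPM in Setdb1_cKO and 1001 CPM in control (0.953, interval 0.893 to 1.02), and Jun had 760 CPM in Setdb1_cKO and 869.2 CPM in control (0.874, interval 0.815 to 0.939). Junb had 402.5 CPM in Setdb1_cKO and 236.7 CPM in control (1.70, interval 1.51 to 1.92), and Egr1 had 473.5 CPM in Setdb1_cKO and 345.4 CPM in control (1.37, interval 1.24 to 1.52). The 10 measured heat shock genes, which dissociation also induces, had a median log2 ratio of -0.02 and 0 calls. Over all measured genes 1.56% were called higher and 0.416% lower, so 0 calls here is what the background gives. The time from dissection to capture is not given for either library, and its part in these values was not tested.

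The sequences before the start sites of Nr4a1, Nr4a2 and Atf3 are shown because these genes were higher over all gated cells and are known to answer to cAMP and calcium through the cAMP response element. The 250 bases before the RefSeq start (GRCm38.p6, written 5′ to 3′ on the gene's strand) are chr15:101266596-101266845 on the plus strand for Nr4a1, chr2:57124004-57124253 on the minus strand for Nr4a2 and chr1:191183334-191183583 on the minus strand for Atf3. Capitals mark the core TGACG of that element, on either strand, so that CGTCA is the core read from the other strand.
Nr4a1: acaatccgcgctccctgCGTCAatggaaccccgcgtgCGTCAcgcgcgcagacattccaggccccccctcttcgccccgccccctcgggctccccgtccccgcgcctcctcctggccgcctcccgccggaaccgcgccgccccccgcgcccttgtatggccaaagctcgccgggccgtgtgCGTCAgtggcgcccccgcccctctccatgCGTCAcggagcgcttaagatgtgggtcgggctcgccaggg
Nr4a2: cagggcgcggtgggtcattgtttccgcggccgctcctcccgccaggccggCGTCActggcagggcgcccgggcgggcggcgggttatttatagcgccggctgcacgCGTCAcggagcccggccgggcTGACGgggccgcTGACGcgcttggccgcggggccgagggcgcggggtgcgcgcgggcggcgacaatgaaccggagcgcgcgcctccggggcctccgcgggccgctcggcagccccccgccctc
Atf3: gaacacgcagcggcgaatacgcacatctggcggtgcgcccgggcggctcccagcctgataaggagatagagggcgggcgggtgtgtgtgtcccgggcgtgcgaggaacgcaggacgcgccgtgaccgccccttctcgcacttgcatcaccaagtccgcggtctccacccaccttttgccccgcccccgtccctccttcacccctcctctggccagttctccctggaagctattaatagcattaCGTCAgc
Nr4a1 and Nr4a2 held 4 cores each, and Atf3 held 1, which ended 2 bases before the start. Klf4 held 1 and Fosl2 held 0. Of 32851 RefSeq promoters of this length 5836 (17.8%) held at least 1 core. How many held 4 or more was not counted, so the 4 cores of Nr4a1 and Nr4a2 have no background. The full palindrome TGACGTCA, which contains the core, occurred in 508 promoters (1.55%) and the CArG box of serum response factor in 482 (1.47%). Neither occurred in these 5 promoters. A match of letters is a description and not a binding site.

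Imprinted genes, which are expressed from only 1 parental copy and many of which act in fetal growth, had 21 of 29 members measured. Of these, 12 lay above 1 and 1, Dlk1, was called higher, against 1.56% of all measured genes. A single call in a list of this size says little about the list. Dlk1 (chr12:109452823-109463336), a membrane-bound Notch ligand relative of immature mesenchyme, had 266 UMIs or 127.5 CPM in Setdb1_cKO and 97 UMIs or 54.9 CPM in control. Its ratio was 2.32 (1.83 to 2.96), and 2.42 without the mixed clusters. It was one of the genes that led cluster 2, which held more Setdb1_cKO cells. Within cluster 2 it had 76 UMIs in Setdb1_cKO and 19 in control, a ratio of 2.70, and within the inner arachnoid-like cluster 114 and 42 UMIs, a ratio of 2.53.

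H19 (chr7:142575529-142578143), a noncoding RNA of the Igf2 locus, had 537 UMIs or 257.3 CPM in Setdb1_cKO and 234 UMIs or 132.5 CPM in control. Its ratio of 1.94 (1.66 to 2.27) fell short of 2-fold, and it was 2.14 without the mixed clusters. All 7 clusters had a higher level in Setdb1_cKO, most UMIs lying in the inner arachnoid-like cluster with 337 in Setdb1_cKO and 132 in control. Igf2, its neighbour, had 1813 CPM in Setdb1_cKO and 2141 CPM in control (0.847, interval 0.809 to 0.886). Nnat had 574.6 CPM in Setdb1_cKO and 355 CPM in control (1.62, interval 1.47 to 1.79). Meg3, a noncoding RNA next to Dlk1, had 786.4 CPM in Setdb1_cKO and 612.1 CPM in control (1.29, interval 1.19 to 1.39), and Rian had 75.7 CPM in Setdb1_cKO and 42.5 CPM in control (1.78, interval 1.35 to 2.38).

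Genes of the G2 and M phases were higher in sum in Setdb1_cKO, while the cycling cluster was of like size in both libraries. All 17 measured members lay above 1, the median log2 ratio was 0.67, and 3 were called higher, against 1.56% of all measured genes. Nusap1, a spindle protein, had 109 UMIs in Setdb1_cKO and 29 in control (3.18, interval 2.10 to 4.97). Kif11 had 52 UMIs in Setdb1_cKO and 15 in control, and Kif23 had 62 in Setdb1_cKO and 26 in control; both encode mitotic kinesins. Top2a, which untangles DNA, had 264 UMIs in Setdb1_cKO and 131 in control. The cells behind these counts were few: Nusap1 was found in 19 Setdb1_cKO and 11 control fibroblasts, and Top2a in 22 and 22. The cycling cluster held 13 Setdb1_cKO and 14 control cells. After thinning, 6.67% of Setdb1_cKO and 6.48% of control fibroblasts kept a UMI of Top2a or Mki67, against 2.38% and 1.91% of neurons. The 12 measured S phase genes had a median of -0.08 and 0 calls. Without the cycling cluster as well as the mixed ones, Nusap1 had a ratio of 0.771 and Kif11 of 0.964. Of the Nusap1 UMIs, 83 in Setdb1_cKO and 21 in control lay in the 27 cells of the cycling cluster.

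The genes that an earlier look at these libraries had found higher in neural classes of Setdb1_cKO were lower in sum in fibroblasts than in other cells, and their differences varied. Summed over the 11 genes they had 356.1 CPM in Setdb1_cKO fibroblasts and 135.3 CPM in control fibroblasts, against 1167 CPM and 215.5 CPM in all other cells of Setdb1_cKO and control. The ratio of sums was 2.63 (2.27 to 3.06), and 1.94 (1.62 to 2.34) without the mixed clusters. Of 6 measured members 4 were called higher, against 1.56% of all measured genes, and without the mixed clusters 2 of 3, against 1.17%. This list was chosen on these libraries, so its direction is not independent evidence.

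Atf7ip (chr6:136506167-136610862), whose protein binds SETDB1 and keeps it in the nucleus, was one of the 4. It had 227 UMIs or 108.8 CPM in Setdb1_cKO and 89 UMIs or 50.4 CPM in control, in 116 of 227 and 66 of 218 cells. The ratio was 2.16 (1.68 to 2.79), 2.14 without the mixed clusters, and between 1.55 and 4.90 in each of the 7 clusters. Without the cells that held 3 or more UMIs of the neuron list it was 1.73 and no longer called. Its level without the mixed clusters was 35.3% of that of other cells in Setdb1_cKO and 41.9% in control, and the neuron list stood at 6.37% and 6.01%. The part of neural RNA in the Atf7ip values was not tested. Cells of vessel walls had ratios above 1 too: in the mural gate Atf7ip had 85 UMIs in Setdb1_cKO and 41 in control (3.01, interval 2.05 to 4.48), and in the endothelial gate 28 and 35 UMIs (1.74, interval 1.02 to 2.95).

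Samd1, which binds unmethylated CpG-rich DNA, had 51 UMIs or 24.4 CPM in Setdb1_cKO and 12 UMIs or 6.80 CPM in control, a ratio of 3.60 (1.89 to 7.41) and of 5.06 without the mixed clusters. Without those clusters it had 39 UMIs in Setdb1_cKO and 7 in control, fewer than a measured gene needs, so 5.06 is uncertain. The cycling cluster alone gave 17 of its UMIs in Setdb1_cKO and 0 in control. Gm47283 had 144 UMIs in Setdb1_cKO and 41 in control (2.97, interval 2.09 to 4.32). The annotation places it on chromosome Y, although the Setdb1_cKO fibroblasts held no UMI of Ddx3y or Eif2s3y, so its value is uncertain.

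Mnd1, a meiotic recombination gene, lost most of its UMIs with the mixed clusters. It had 77 UMIs in Setdb1_cKO and 7 in control over all gated cells, a ratio of 9.31 (4.31 to 23.9). Without the mixed clusters it had 18 UMIs in Setdb1_cKO and 5 in control, a ratio of 3.27 (1.17 to 11.3), and its level was 6.43% of that of other cells in Setdb1_cKO and 45.4% in control, where it rested on 5 UMIs. For the neuron list these shares were 6.37% and 6.01%. After thinning, 1 of 186 Setdb1_cKO and 2 of 189 control fibroblasts of that set kept a UMI of Mnd1. Tcfl5 had 30 UMIs in Setdb1_cKO and 2 in control, but 8 and 0 without the mixed clusters. Gm49795, Gm7967 and Gm48619 had 37, 27 and 21 UMIs in Setdb1_cKO, of which 8, 2 and 3 remained. The part of neural RNA in these 5 genes was not tested. Crlf2, a cytokine receptor chain, had 61 UMIs in Setdb1_cKO and 49 in control (1.05, interval 0.712 to 1.57), against a ratio of 3.39 in all other cells. In control its level was 27.8 CPM in fibroblasts, above the 11.2 CPM of other cells.

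**Figure D5:**
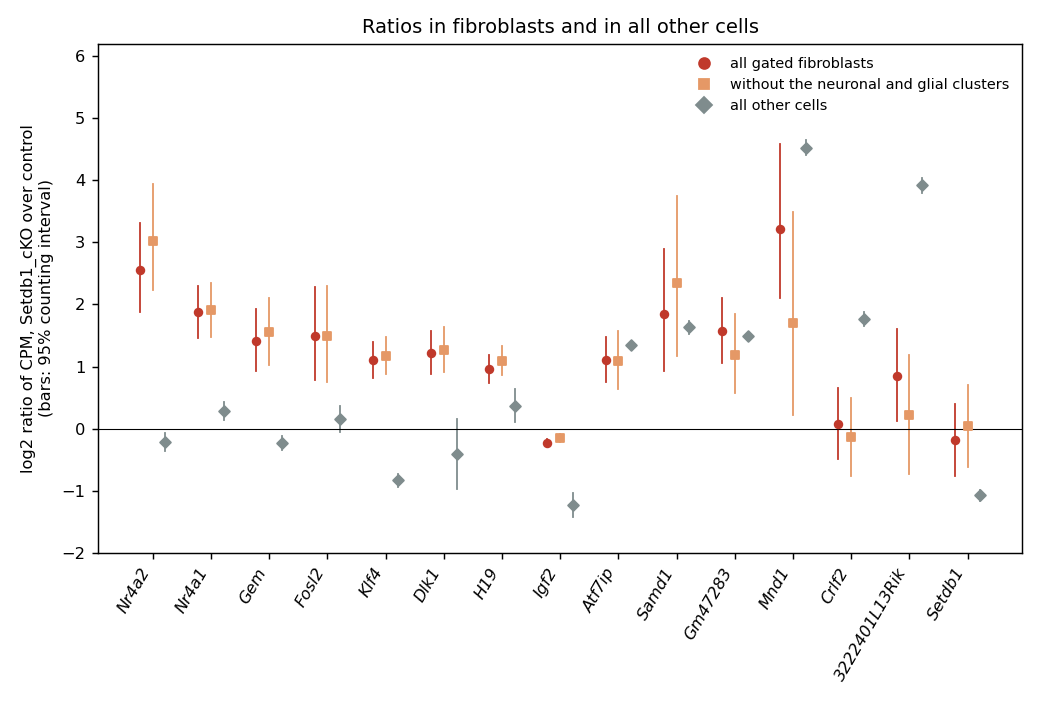
Log2 ratio of CPM, Setdb1_cKO over control, of 15 named genes in all gated fibroblasts (red circles), in fibroblasts without the neuronal and glial clusters (orange squares) and in all other cells (grey diamonds); bars are 95% counting intervals. Nr4a2, Gem and Klf4 are above 0 in fibroblasts and below 0 in other cells, while Atf7ip and Samd1 are above 0 in all 3 sets.

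Atf7ip was the only called gene among 15 measured members of the group of Setdb1, its partners and other H3K9 writers, whose median log2 ratio was 0.02. Of 34 germline genes 2 were measured and 0 called: Tex15 had 94.4 CPM in Setdb1_cKO and 73.6 CPM in control (1.28, interval 1.02 to 1.61), and Syce2 had 50 UMIs in Setdb1_cKO and 26 in control. Among 11 measured interferon-response genes Bst2, which tethers enveloped virus particles, was called, with 82 UMIs in Setdb1_cKO and 27 in control (2.57, interval 1.65 to 4.13; 2.62 without the mixed clusters). The list as a whole had a median of -0.14, and the 3 measured genes of class I antigen presentation had 0 calls. Over all measured genes 1.56% were called higher and 0.416% lower. At these shares, 0 or 1 call in lists of these sizes says little about the lists.

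Several genes with large ratios came from the mixed clusters. Nrgn, a synaptic calmodulin-binding gene, had 205 UMIs in Setdb1_cKO and 26 in control, but 31 and 19 without them, a ratio of 1.48 (0.811 to 2.78). Mef2c had 115 UMIs in Setdb1_cKO and 22 in control, with 47 of the 115 in 1 cell, and 22 and 15 without them. The neuron list had 3 higher calls among 9 measured genes over all gated cells (Stmn2, Syt1 and Snap25), against 1.56% of all measured genes. Without the mixed clusters it had 0 among 5, against 1.17%. Gfap and Hopx of the glial list had ratios of 2.10 and 2.21 over all cells and of 0.844 and 0.519 without the mixed clusters. Without those clusters both genes had fewer UMIs than a measured gene needs, so 0.844 and 0.519 give no direction. Without called doublets Gfap was 11.2. Reln and Tac2, at 0.499 and 0.404, rested on single cells with up to 76 and 57 UMIs in control. C1qtnf4 had 131 UMIs in Setdb1_cKO and 39 in control, and still 71 and 30 without the mixed clusters (2.15, interval 1.39 to 3.41).

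The other genes named as lowest in Setdb1_cKO were ranked by the interval bound nearest to 1 among genes with at least 50 CPM. Their level follows in part from that rule, and called genes of lower level can lie further from 1. Fam32a had 131 UMIs or 62.8 CPM in Setdb1_cKO and 226 UMIs or 128 CPM in control. Its ratio was 0.491 (0.393 to 0.611), it lay below 1 in 7 of 7 clusters, and it was 0.532 in all other cells. Nfat5, the transcription factor that answers to osmotic stress, had 114 UMIs or 54.6 CPM in Setdb1_cKO and 197 UMIs or 111.6 CPM in control (0.490, interval 0.385 to 0.620), again below 1 in 7 of 7 clusters. Fam32a and Nfat5 were called.

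The others named by rank did not reach 2-fold. Serpine2, a protease inhibitor, had 181.6 CPM in Setdb1_cKO and 300.1 CPM in control (0.605, interval 0.529 to 0.692), below 1 in 7 of 7 clusters. Gng11, a G protein subunit, had 160.1 CPM in Setdb1_cKO and 293.3 CPM in control (0.546, interval 0.474 to 0.627). Ndnf, a secreted neurotrophic factor that also marks Cajal-Retzius cells, had 126.5 CPM in Setdb1_cKO and 207.8 CPM in control (0.609, interval 0.518 to 0.715). Fgfbp1, which releases fibroblast growth factors from the matrix, had 41.7 CPM in Setdb1_cKO and 76.4 CPM in control, and Asgr1 had 61.8 CPM in Setdb1_cKO and 107.6 CPM in control. These 5 genes were between 0.609 and 0.653 without the mixed clusters. Gng11, Fgfbp1 and Asgr1 lay below 1 in 6 of 7 clusters each, and Ndnf in 5 of 7.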

How the data were processed

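Whole UMI counts per gene and barcode, not normalised, were deposited for each library. Cell Ranger 7.1.0 made them, per the file headers, and mm10 is the build in the submitters' processing notes, which also list Seurat. Both matrices hold 32285 genes, and 32235 identifiers matched GENCODE vM21. The sources used here do not say how intronic reads were counted. Cells were kept with at least 1000 UMIs, 500 genes and at most 10% mitochondrial UMIs. Gated cells were clustered with scanpy 1.11.5 and leidenalg 0.10.2 (20 components, 15 neighbours, resolution 0.8), without the gate, sex-linked, mitochondrial, ribosomal and haemoglobin genes. Scrublet doublets (expected rate 8%) were kept in the values as reported. Counts were summed per library, since cells are not replicates. Intervals at 95% are exact conditional Poisson ones for ratios and Clopper-Pearson ones for shares, and cover counting error only. A gene needed 50 UMIs over both libraries. The computation was tested on simulated counts with known fold changes.

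Named genes were the 12 highest and 12 lowest ratios with at least 50 CPM, ranked by the interval bound nearest to 1, without sex-linked, mitochondrial, haemoglobin and ribosomal genes, then Setdb1, layer markers, the genes furthest above other cells, and leading or called members of each list. Nr4a2's relation to the immediate early list, and the promoters shown, were chosen after their values were seen. The members and lists were chosen with earlier results of these data known. Removing the neuronal and glial clusters was added after seeing the data. Promoter sequences are from RefSeq.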

Additional observations from a re-analysis of the deposited data

Results flagged for a closer look

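Among named genes called in fibroblasts, 6 had ratios, Setdb1_cKO over control, whose intervals lay wholly on opposite sides of 1 in fibroblasts and in all other cells. Ratios alone on opposite sides were not enough. Col22a1, at 0.494 in fibroblasts, had 0.426 CPM in Setdb1_cKO and 0.326 CPM in control in all other cells and is not among the 6. Genes short of 2-fold in fibroblasts were not counted, so others can do the same. Klf2, for example, had 220.9 CPM in Setdb1_cKO and 121.2 CPM in control fibroblasts. In all other cells it had 20.3 CPM in Setdb1_cKO and 47.2 CPM in control. These differences were not tested, since each genotype has 1 library. All other cells are a pool of cell types, and vessel cells differed in number. An endothelial gate held 28 Setdb1_cKO and 72 control cells, and a mural gate 45 and 79. The part of cell numbers in the ratios of other cells was not tested. Nr4a2 had a ratio of 5.882 in fibroblasts and 0.8582 in other cells, Gem 2.671 and 0.85, and Klf4 2.149 and 0.5605. The other 3 are mitotic genes: Nusap1 had 3.181 in fibroblasts and 0.6204 in other cells, Kif11 2.934 and 0.6435, and Kif23 2.018 and 0.5294. In the mitotic genes the fibroblast value rests on the 27 cells of the cycling cluster.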

How the results depend on the processing

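No paired analysis was possible because each group has 1 library, and for the same reason no replicate could be left out. The ratio of fibroblast shares stayed between 1.12 and 1.21 under the other gates, depths and doublet settings tried. The count of genes at least 2-fold higher in Setdb1_cKO, 124, was 77 without called doublets, 79 without the neuronal and glial clusters and 59 without the cycling cluster too. With a minimum of 30 UMIs the counts were 253 higher and 85 lower, and with 100 UMIs 47 and 10; fewer UMIs per gene let more ratios pass 2-fold. Reln changed direction to 2.544 with the excluded genes at 0, 1.076 without doublets, 1.207 without cells of 3 or more neuron UMIs, 1.09 without the neuronal and glial clusters and 1.028 without the cycling cluster too. Without the neuronal and glial clusters Tac2 was 1.652, Gfap 0.8435 and Hopx 0.5191. Without the cycling cluster too, Nusap1 was 0.7713, Hopx 0.7713, Kif11 0.9641 and Kif23 0. Without these clusters the Tac2, Gfap, Hopx, Nusap1, Kif11 and Kif23 values rest on fewer than 50 UMIs each and give no direction. Over the ratios of single genes and of cluster shares, 418 values held, 39 moved and 12 reversed. A held value stayed near the reported one but could lose its call. Snap25, for example, went from 2.05 to 1.41 with a gate of 5 UMIs and is among the held. Of 11 settings, Stmn2 and Col22a1 were called in 5, Hopx in 4 and Reln in 1, while Nr4a1, Nr4a2 and Dlk1 were called in 11. Nr4a1 stayed between 3.58 and 4.27, Nr4a2 between 5.48 and 8.90 and Dlk1 between 2.14 and 2.64. Calls just past 2-fold were lost in some settings: Atf7ip was 1.73 without cells of 3 or more neuron UMIs, and the value nearest to 1 was 1.94 for Atf3, 1.93 for C1qtnf4, 0.511 for Fam32a and 0.515 for Nfat5. Gfap ranged up to 11.2, without doublets, and Setdb1 was 1.37 without cells of 3 or more neuron UMIs. Resolutions of 0.5 and 1.2 gave 7 and 10 clusters. A gene near the minimum of 50 UMIs has an interval too wide to place its ratio at 2-fold.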
